A study of Mus musculus with 26 samples.

Results

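The 3 genes described here, Spdef, Agr2 and Creb3l1, act in the making of secreted proteins in gland cells. They were taken by gene symbol from the annotation of 10500 array probes, which named 8841 genes. Each had 1 probe, and all 3 probes passed the filter on low values that kept 8211 probes. RNA had been measured on 26 arrays in 5 exocrine glands of BALB/c mice: the submandibular, sublingual and parotid glands, which make saliva, the lacrimal gland, which makes the aqueous part of tears, and the meibomian gland, the oil gland of the eyelid. The groups were males and females of this strain, with no treatment or mutation given. Each array held 1 pool of glands from 5 mice, with 3 male and 3 female pools for submandibular, meibomian and lacrimal glands and 2 male and 2 female pools for parotid and sublingual glands. Neither the age of the animals nor the platform is given in the sources used here.

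Spdef is a transcription factor of the ETS family that drives the maturation of goblet and mucous cells. Creb3l1, also called OASIS, is a transcription factor held in the membrane of the endoplasmic reticulum (ER). It is freed by cleavage in the Golgi and turns on genes of secretion and of collagen transport. Agr2 is a disulfide isomerase of the ER that mouse intestinal goblet cells need in order to fold mucins, and it is among the genes that Spdef activates in mucous cells of the airway. The Spdef gene lies at chr17:27714446-27731003, Agr2 at chr12:35992925-36004081 and Creb3l1 at chr2:91982328-92024170 in assembly GRCm38.p6.

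The promoters of Spdef and Agr2 are shown because these 2 genes were both lower in male than in female submandibular glands. Each is the 250 bases before an annotated start, from RefSeq on GRCm38.p6, written 5′ to 3′ on the strand of the gene. The Spdef window, chr17:27728952-27729201 on the minus strand, lies inside the annotated span of the gene, before a start that is not its outermost one. The Agr2 window is chr12:35992675-35992924 on the plus strand. Capitals mark GGAT, the core that Spdef prefers, TGACGTG, a sequence known to bind factors of the CREB3 and ATF6 kind, and GTAAATA, a forkhead-type sequence, each on either strand.
Spdef promoter: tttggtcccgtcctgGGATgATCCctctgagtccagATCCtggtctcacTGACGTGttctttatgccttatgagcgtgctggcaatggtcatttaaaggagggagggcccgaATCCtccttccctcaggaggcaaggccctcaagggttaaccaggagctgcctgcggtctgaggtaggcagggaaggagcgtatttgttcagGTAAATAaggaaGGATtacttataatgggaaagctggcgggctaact
Agr2 promoter: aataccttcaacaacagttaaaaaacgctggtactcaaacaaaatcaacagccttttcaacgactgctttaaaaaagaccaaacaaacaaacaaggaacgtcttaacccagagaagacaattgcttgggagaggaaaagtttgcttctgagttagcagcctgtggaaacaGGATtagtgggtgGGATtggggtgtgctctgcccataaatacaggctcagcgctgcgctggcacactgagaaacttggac
The Spdef window held GGAT at 5 places, 2 of them on the strand shown and 3 on the other. It also held TGACGTG once, at position -201 from the start, and GTAAATA once, at position -47. The Agr2 window held GGAT at 2 places, at -80 and -67, and neither of the others. The related forkhead sequence GTAAACA was in neither window. The marked sequences do not overlap one another. Of 32851 promoter windows of this length, 74.1% held GGAT, 1.65% TGACGTG, 2.73% GTAAATA and 3.17% GTAAACA on either strand. A match of this kind is a description of the sequence and not a site.

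Values are intensities as deposited, scaled within each array so that the median of all probes lay between 0.928 and 0.955. A probe counted as measured on an array from the 30th percentile of that array upward, which lay between 0.281 and 0.561, and the 3 probes reached it on all 26 arrays. Levels of different probes are not set against each other, since a probe's brightness depends on the probe. The submandibular and lacrimal marker lists were highest in the glands of that name, with summed intensities of 625 to 738 in male and 369 to 488 in female submandibular pools for granular duct genes (3 of 7 listed genes measured) and 749 to 1196 in male and 927 to 1084 in female lacrimal pools for lacrimal acinus genes (4 of 7). Sebocyte genes (6 of 10) marked the meibomian pools. Of the parotid acinus genes only Amy1 and Car6 were measured, and both were bright in all but the meibomian gland. None of the 6 listed sublingual mucous genes was on the array, so the sublingual label could not be checked by them. Granular duct genes summed to 305 to 351 in male and 198 to 298 in female sublingual pools. There 3 of 3 probes were called higher than the mean of the other 4 glands, and 2 of 3 higher in males. The sums were below those of the submandibular pools of the same sex. In parotid pools these genes summed to 140 to 368 in males and 165 to 302 in females. Whether the sublingual pools held submandibular tissue was not tested. Skeletal muscle genes (12 of 15) summed to 254 to 461 in meibomian pools and 69.6 to 336 in parotid pools. The arrays were split into 2 sets by the sign of the leading component of their deviations from the group means (39.1% of that variation). Such deviations cancel within a group, so each group holds arrays of both sets by construction. The same pool letters fell into set 1 in both sexes: submandibular B, sublingual A, parotid A, lacrimal B and meibomian A. The others formed set 2. What separates the sets is not given in the labels.

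The 3 genes had different orders across the glands. Spdef was highest in the sublingual gland, Agr2 in the lacrimal gland and Creb3l1 in the parotid gland. Every gland was set against the mean of the other 4 by limma's moderated test with Benjamini-Hochberg adjustment over all probes kept, and a probe was called at an adjusted p under 0.05. In the sublingual gland 3 of the 3 genes were called higher, where 10.3% of all probes were higher and 11.3% lower. In the submandibular gland Spdef was called higher and Agr2 lower, beside 13.8% and 16.0% of all probes. In the parotid gland Creb3l1 was called higher and Agr2 lower, beside 15.1% and 20.8%. In the lacrimal gland Agr2 was called higher and the other 2 lower, beside 28.9% and 19.5%. In the meibomian gland Spdef and Creb3l1 were called lower, where 31.4% of all probes were higher and 36.0% lower. With the pool letter, which male and female arrays of a gland share, as a block, the shares higher and lower were 6.27% and 5.69% in the sublingual, 9.34% and 9.03% in the submandibular and 11.0% and 12.4% in the parotid, 22.4% and 14.9% in the lacrimal and 26.9% and 31.6% in the meibomian gland, and each of these calls of the 3 genes was also made.

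**Figure D1:**
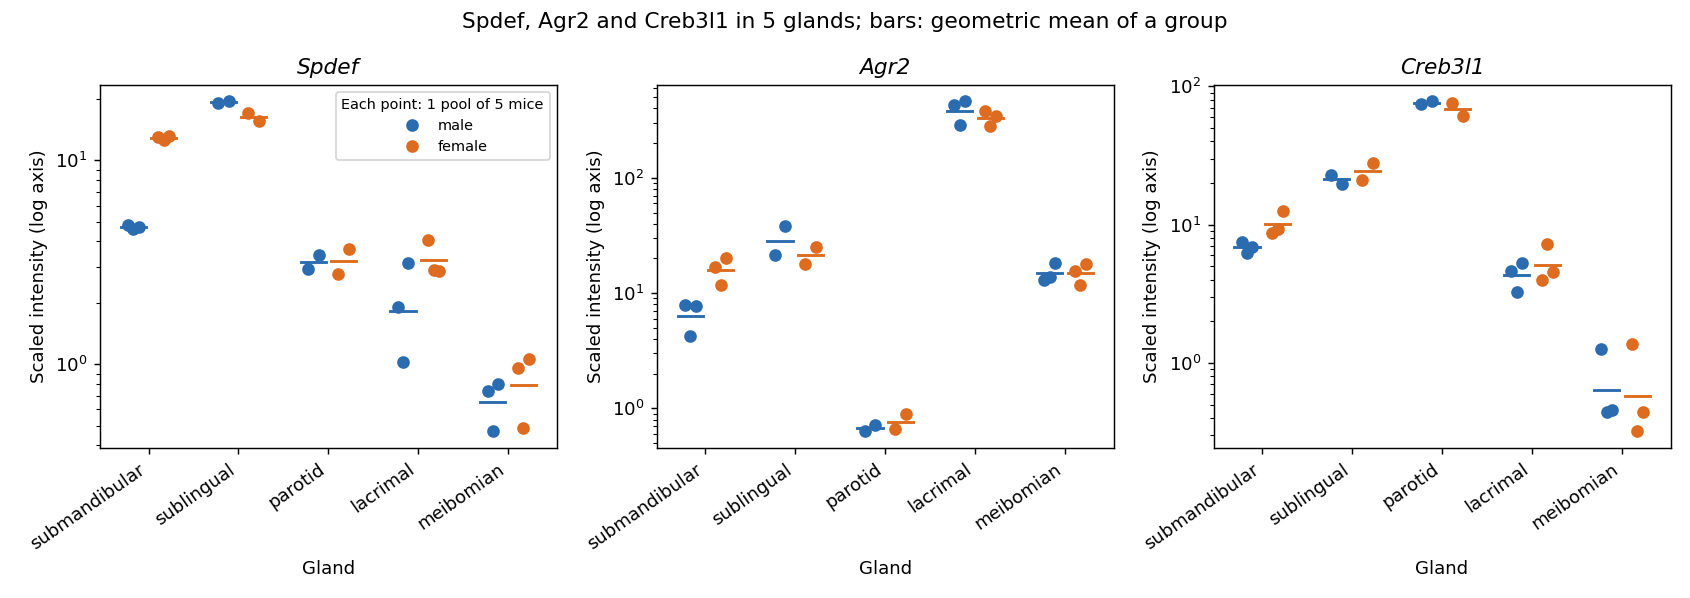
Scaled intensity (log axis) of Spdef, Agr2 and Creb3l1 on 26 arrays, 1 point per pool of 5 mice, male left of female in each gland, with bars at the geometric mean of each group. Sublingual pools lead for Spdef (15.6 to 19.4), lacrimal pools for Agr2 (279 to 460) and parotid pools for Creb3l1 (61.6 to 77.9).

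Spdef read 19.2 and 19.4 in the male sublingual pools and 17.1 and 15.6 in the female ones. In the submandibular gland it read 4.84, 4.59 and 4.69 in males and 12.9, 12.6 and 13.1 in females. The female submandibular pools thus came close to the sublingual ones, while the male pools lay well below both. Parotid values were 2.95 and 3.45 in males and 2.78 and 3.68 in females. In the lacrimal gland it read 1.90, 1.02 and 3.15 in males and 4.09, 2.89 and 2.88 in females. Parotid and lacrimal pools overlapped, with the lowest values in the lacrimal glands of males. In the meibomian gland the values were 0.736, 0.469 and 0.801 in males and 0.959, 0.489 and 1.06 in females, and 1 male lacrimal pool (1.02) was in their range.

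Over both sexes Spdef had geometric means of 17.8 in the sublingual, 7.79 in the submandibular, 3.19 in the parotid, 2.43 in the lacrimal and 0.718 in the meibomian gland. The sublingual level was 6.92-fold above the mean of the other 4 glands (log2 2.79 ± 0.22 SE, adjusted p = 2.25e-08), and no sublingual pool overlapped a pool of another gland. The submandibular gland was higher than the mean of the other 4 by 1.30 ± 0.19 (adjusted p = 2.16e-05). The meibomian gland was lower (-3.00 ± 0.19, adjusted p = 2.72e-11). In bulk RNA such as this, fewer cells of a type and less RNA per cell cannot be told apart.

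The lacrimal level of Spdef was also below the mean of the others (-0.79 ± 0.19, adjusted p = 0.00178). This call was lost in set 2 of the arrays alone (-0.55, adjusted p = 0.0903) and with array weights (-0.68, adjusted p = 0.114), out of adjusted p of 0.00018 to 0.114 over 36 alternatives. The parotid level did not pass (-0.30, 95% interval -0.77 to 0.16, adjusted p = 0.303). Between neighbours in the order, the submandibular gland was below the sublingual (-1.19 ± 0.26, adjusted p = 0.00305, where 15.6% of all probes were called in that pair) and above the parotid by 1.29 ± 0.26 (adjusted p = 0.000825, 25.9% of probes). The sexes were weighted equally in these values. In males alone the geometric means were 4.71 in the submandibular and 19.3 in the sublingual gland, and in females 12.9 in the submandibular and 16.4 in the sublingual gland. In set 2 alone both calls were lost (adjusted p = 0.0786 and 0.0565). The parotid and lacrimal glands did not differ beyond their spread (0.39 ± 0.26, 95% interval -0.16 to 0.94, adjusted p = 0.241, 41.8% of probes). The lacrimal gland was above the meibomian gland (1.76 ± 0.24, adjusted p = 2.01e-06, 62.9% of probes).

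Creb3l1 read 75.1 and 77.9 in the male parotid pools and 75.8 and 61.6 in the female ones. Sublingual values were 22.8 and 19.8 in males and 21.2 and 28.2 in females. The parotid pools stood above the pools of every other gland, and the sublingual pools stood next. In the submandibular gland the values were 7.52, 6.26 and 6.87 in males and 8.69, 9.30 and 12.6 in females. In the lacrimal gland they were 4.63, 3.28 and 5.28 in males and 3.98, 7.29 and 4.54 in females, partly within the submandibular range. In the meibomian gland Creb3l1 read 1.27, 0.446 and 0.458 in males and 1.38, 0.321 and 0.441 in females. Meibomian pool A of each sex, the set 1 arrays of that gland, gave the 2 highest of these 6 values. The others lay at the 31.6th to 37.5th percentile of their arrays, near the 30th, where the measured range begins. Folds of Creb3l1 against this gland rest on values near that edge.

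The parotid level of Creb3l1 was 15.0-fold above the mean of the other 4 glands (log2 3.91 ± 0.29, adjusted p = 1.06e-09), with no overlap of pools. The geometric means were 72.3 in the parotid, 22.8 in the sublingual, 8.31 in the submandibular, 4.68 in the lacrimal and 0.608 in the meibomian gland. Against the mean of the other 4, the sublingual gland was above (1.82 ± 0.29, adjusted p = 8.13e-05) and the lacrimal gland below (-1.03 ± 0.25, adjusted p = 0.00178). The meibomian gland was 26.1-fold below that mean (-4.71 ± 0.25, adjusted p = 1.39e-12), with no overlap. The submandibular level was near the mean of the other 4 (0.01 ± 0.25, 95% interval -0.51 to 0.52, adjusted p = 0.991).

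Each step in the order of Creb3l1 passed the test in the main fit, the step from submandibular to lacrimal least securely. The sublingual gland was below the parotid (-1.67 ± 0.37, adjusted p = 0.00284, 19.3% of probes called in that pair), and the submandibular below the sublingual (-1.46 ± 0.34, adjusted p = 0.00476). The submandibular gland was above the lacrimal by 0.83 ± 0.30 (adjusted p = 0.0385, 36.7% of probes), with pools that overlapped. This difference was called in 26 of 37 alternatives (adjusted p of 0.00418 to 0.118). The call was lost with the pool letter as a block (adjusted p = 0.118), with array weights (0.117) and without each of the submandibular pools except female A. Some lacrimal pools left out also lost it. The lacrimal gland was above the meibomian by 2.94 ± 0.30 (adjusted p = 6.19e-08). From end to end, the parotid gland was 119-fold above the meibomian gland (6.89 ± 0.34, adjusted p = 1.11e-12, 58.2% of probes).

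Agr2 read 428, 286 and 460 in the male lacrimal pools and 379, 279 and 343 in the female ones. These values were 48.1% to 64.4% of the brightest probe of the same array. Sublingual values of Agr2 were 21.2 and 38.2 in males and 18.1 and 25.2 in females. No sublingual pool came near the lacrimal range. In the meibomian gland it read 13.1, 13.7 and 18.3 in males and 15.7, 11.8 and 17.9 in females. In the submandibular gland it read 7.81, 4.29 and 7.77 in males and 16.7, 11.9 and 20.3 in females, so the female pools lay within or near the meibomian and sublingual ranges and the male pools below both. Parotid values were all under 1, at 0.633 and 0.714 in males and 0.657 and 0.901 in females.

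The lacrimal level of Agr2 was 49.6-fold above the mean of the other 4 glands (log2 5.63 ± 0.17, adjusted p = 5.54e-16), and the parotid level was 47.1-fold below it (-5.56 ± 0.20, adjusted p = 1.46e-13). Neither gland overlapped any other. The geometric means were 356 in the lacrimal, 24.6 in the sublingual, 14.9 in the meibomian, 10.1 in the submandibular and 0.719 in the parotid gland. Set against each other, the parotid gland was 495-fold below the lacrimal gland (-8.95 ± 0.24, adjusted p = 3.38e-16). Under quantile normalization the lacrimal value was 4.78 and the parotid against lacrimal value -8.15 on the log2 scale, both still called. The sublingual gland was above the mean of the other 4 by 0.82 ± 0.20 (adjusted p = 0.00528). That call was lost without male sublingual B (0.60, adjusted p = 0.0810) or female sublingual B (0.69, adjusted p = 0.0547), in a range of 9.1e-06 to 0.0810 over 36 alternatives. The submandibular gland was below the mean of the others (-0.80 ± 0.17, adjusted p = 0.00131). The meibomian level did not pass (-0.09, 95% interval -0.45 to 0.27, adjusted p = 0.648).

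Between neighbours, the sublingual gland was below the lacrimal in Agr2 (-3.85 ± 0.24, adjusted p = 9.55e-11, 38.1% of probes called in that pair). With quantile normalization this difference was -2.86. The sublingual gland was above the meibomian by 0.73 ± 0.24 (adjusted p = 0.0147, 52.5% of probes), with pools that overlapped. With male sublingual B left out it was no longer called (0.51, adjusted p = 0.111), nor with female sublingual B left out (0.61, adjusted p = 0.0774), in a range of 0.000295 to 0.111 over 37 alternatives. The submandibular gland was below the meibomian (-0.56 ± 0.21, adjusted p = 0.0285, 58.8% of probes), and this call was lost with the pool letter as a block (adjusted p = 0.0638, in a range of 0.00312 to 0.143 over 37 alternatives). By sex, the geometric means were 6.38 in the submandibular and 14.9 in the meibomian gland of males, and 15.9 in the submandibular and 14.9 in the meibomian gland of females. The submandibular gland was above the parotid by 3.81 ± 0.24 (adjusted p = 1.52e-10). Across all 26 arrays the log2 values of Spdef and Creb3l1 had a Pearson r of 0.70, those of Agr2 and Creb3l1 one of -0.40 and those of Spdef and Agr2 one of -0.04. The points of these correlations share glands and arrays, and the values are a description.

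**Figure D2:**
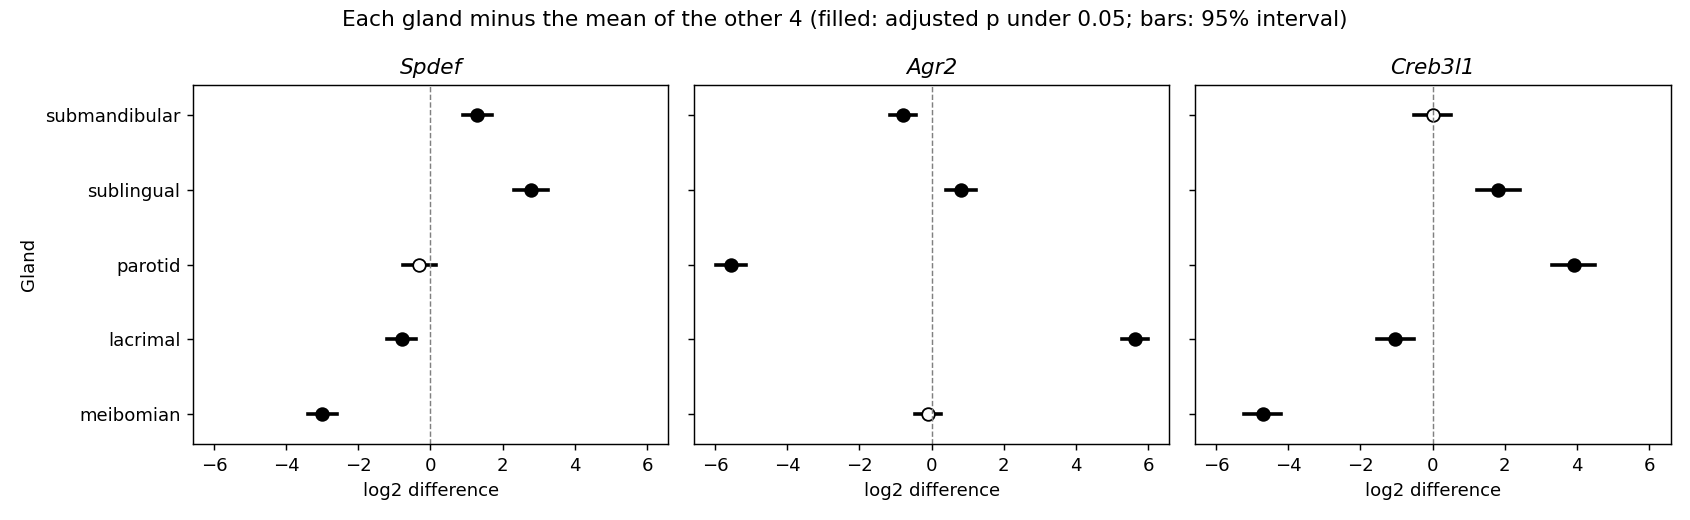
Log2 difference of each gland from the mean of the other 4 for Spdef, Agr2 and Creb3l1, with 95% intervals and filled points where the adjusted p was under 0.05. Sublingual stands highest for Spdef (2.79), lacrimal highest and parotid lowest for Agr2 (5.63 and -5.56), and parotid highest and meibomian lowest for Creb3l1 (3.91 and -4.71).

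Genes of the work of a mucous cell were counted around Spdef, in lists of which the members measured are given. In the sublingual gland, where Spdef was highest, 8 of 21 probes for mucin O-glycosylation were higher than the mean of the other 4 glands. The same test called 4 lower, with a median log2 difference of 0.33 beside -0.08 over all probes. St3gal4, which adds sialic acid to galactose, had 50.7 in the sublingual gland, 29.6 in the submandibular and 0.475 to 2.77 in the others (4.02 ± 0.26 against the mean of the other 4). St3gal1, a sialyltransferase of the core of O-glycans, was higher by 2.59 ± 0.32, and Galnt4, which starts O-glycans, by 1.72 ± 0.21. Chst2, a sulfotransferase, was lower (-1.76 ± 0.20), with 0.794 in the sublingual gland and 83.2 in the lacrimal gland.

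Of 8 probes for mucins and mucus proteins, 1 was higher and 3 were lower in the sublingual gland. With the pool letter as a block, the counts were 0 and 3. Muc13, a membrane mucin, was the one that was higher than the mean of the other 4 glands. It had 1.48 in the sublingual gland and was highest in the submandibular gland, at 7.2. With the lacrimal gland, which lay below the measured range, raised to its edge, Muc13 was 1.79-fold higher. Its parotid mean of 0.260 also lay under the range and was left as measured, so this is not a strict bound. Muc5ac and Tff1, a gel-forming mucin and a trefoil peptide of surface goblet cells, were lower in the sublingual gland (-2.56 ± 0.25 and -2.13 ± 0.43). Both were highest in the meibomian gland, at 43.1 for Muc5ac and 22.3 for Tff1, against 0.498 and 0.260 in the sublingual gland. The meibomian gland was thus highest in these genes and lowest in Spdef.

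Other transcription factors were mixed. Of 10 probes for goblet and mucous cell factors, 2 were higher and 1 lower in the sublingual gland (2 and 0 with the pool letter as a block). Sox2, a factor of salivary progenitor cells, had 3.37 there, and the parotid, lacrimal and meibomian glands lay below the measured range. With these glands raised to its edge, Sox2 was 11.9-fold higher. Its submandibular mean of 0.1498 also lay under the range and was left as measured, so this is not a strict bound. Sox10, a factor of salivary progenitor, myoepithelial and glial cells, was higher than the mean of the other 4 by 0.92 ± 0.13. Its sublingual level of 5.09 was below the submandibular (7.47) and parotid (12.5) ones, and above the lacrimal (1.29) and meibomian (0.432) ones. Klf4 was lower (-1.10 ± 0.25). Of 19 probes for the ETS family, to which Spdef belongs, 5 were higher and 0 lower (3 and 0 with the block). They were Elk1 (2.02 ± 0.25), Etv1 (1.93 ± 0.30), Ets1, a factor of lymphocytes (0.88 ± 0.23), Spic, a factor of macrophages, and Fli1, a factor of blood and endothelial cells. Elk1 was highest in the sublingual gland (1.88), while Etv1 was higher in the parotid (18.7) than in the sublingual gland (13.3). With glands below the measured range on all their arrays raised to its edge, Spic was 2.28-fold and Fli1 2.10-fold higher. These are not strict bounds. Means of Spic in the parotid and lacrimal glands (0.276 and 0.287) and of Fli1 in the submandibular and meibomian glands (0.2495 and 0.210) were also under the range and left as measured.

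Serous, stromal and immune genes moved in the same gland. Of 8 probes for products of serous cells, 7 were higher and 0 lower in the sublingual gland than the mean of the other 4 (3 and 0 with the block). They included Amy1, salivary amylase (2.57 ± 0.63), Ltf, lactoferrin (1.47 ± 0.39), and Lyz2, lysozyme (1.25 ± 0.28). Amy1 had 208 in the sublingual gland, below the submandibular (221) and parotid (280) glands, and 0.495 in the meibomian gland. Car6 had 260, below all but the meibomian gland (2.64). Ltf had 6.29, against 56.7 in the lacrimal gland. Lyz2 was highest in the sublingual gland (29.15). Of 21 probes for collagen and fibroblast genes, 1 was higher and 10 were lower (0 and 3 with the block), with Col1a2 at -1.67 ± 0.38 and Col1a1 at -1.45 ± 0.35. T cell genes (8 of 10 listed) were higher at 7 of 8 probes and lower at 0 (5 and 0 with the block), with a median of 2.12. They summed to 17.9 to 18.5 in male and 16.6 to 28.1 in female sublingual pools, against 3.58 to 3.80 in male and 5.27 to 6.33 in female submandibular pools. B and plasma cell genes were higher at 5 of 8 probes and lower at 1 (4 and 1 with the block), with a median of 1.95. Skeletal muscle genes were lower at 12 of 12 probes and keratinocyte genes at 6 of 8. The part of other cell types in the difference of Spdef and in the ETS counts was not tested.

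Around Agr2, other enzymes of disulfide formation in the ER were counted in the lacrimal and parotid glands, its extremes. Of 14 probes for protein disulfide isomerases and oxidative folding, the lacrimal gland had 9 that were higher and 2 that were lower (9 and 1 with the block), with a median of 0.84 beside 0.12 over all probes. Against this, 0 were higher and 8 lower in the parotid gland, with a median of -0.63 beside -0.13. Agr2 is not in this list. Qsox1, a sulfhydryl oxidase, differed by 2.68 ± 0.19 in the lacrimal gland and by -3.05 ± 0.22 in the parotid gland. P4hb, the main disulfide isomerase, was higher in the lacrimal gland by 1.88 ± 0.18, and Pdia5 by 1.87 ± 0.20. Txndc12, a small ER thioredoxin of the same family as Agr2, was lower there (-0.77 ± 0.19). Of the same list 3 probes were higher in the sublingual gland, Txndc12 (0.86 ± 0.22), Pdia5 (1.14 ± 0.24) and Pdia4 (0.78 ± 0.16), and 3 were lower.

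Around Creb3l1, 20 probes for the CREB3 family and the unfolded protein response and 23 probes for transport from ER to Golgi were counted. In the parotid gland, where Creb3l1 was highest, 3 probes of the response were higher and 4 lower (1 and 3 with the block), and 2 transport probes were higher and 3 lower (1 and 3). Of all probes, 15.1% were higher and 20.8% lower there, and the counts of the response were near these shares. Bhlha15, also called Mist1, a factor of serous secretory cells, was higher by 1.38 ± 0.47, and Hspa5, the ER chaperone BiP, was lower (-0.83 ± 0.20). The largest counts were in the lacrimal and meibomian glands, where Creb3l1 was low. In the lacrimal gland 13 probes of the response were higher and 2 lower (13 and 0 with the block), and 13 transport probes were higher and 1 lower (11 and 0). Xbp1, a main factor of the response, was higher there by 1.20 ± 0.16. In the meibomian gland 1 probe of the response was higher and 13 lower, and 4 transport probes were higher and 17 lower.

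In the sublingual gland Mbtps1, the site-1 protease that cleaves Creb3l1 in the Golgi, was higher by 0.75 ± 0.26. Ern1, the ER stress sensor IRE1α, had 3.35 there, against 0.188 to 0.493 in the other glands. With the meibomian gland, which lay below the measured range, raised to its edge, Ern1 was 8.30-fold higher. Ern2, its relative of mucous epithelia, was lower (-0.66 ± 0.15). Sec23b, a coat protein of vesicles that leave the ER, was higher by 2.30 ± 0.19, and Lman1, a cargo receptor between ER and Golgi, by 1.09 ± 0.38. Sec23b was highest in the sublingual gland (34.3), while Lman1 had 14.2 there and 15.7 in the lacrimal gland. In all, 2 probes of the response were higher and 2 lower in the sublingual gland (1 and 1 with the block), and 7 transport probes were higher and 1 lower (2 and 0). In the meibomian gland, where Creb3l1 was lowest, 31.4% of all probes were higher. Collagen genes, which Creb3l1 is known to control in bone, were higher there at 17 of 21 probes and lower at 0. In the parotid gland 1 of these probes was higher and 2 were lower.

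**Figure D3:**
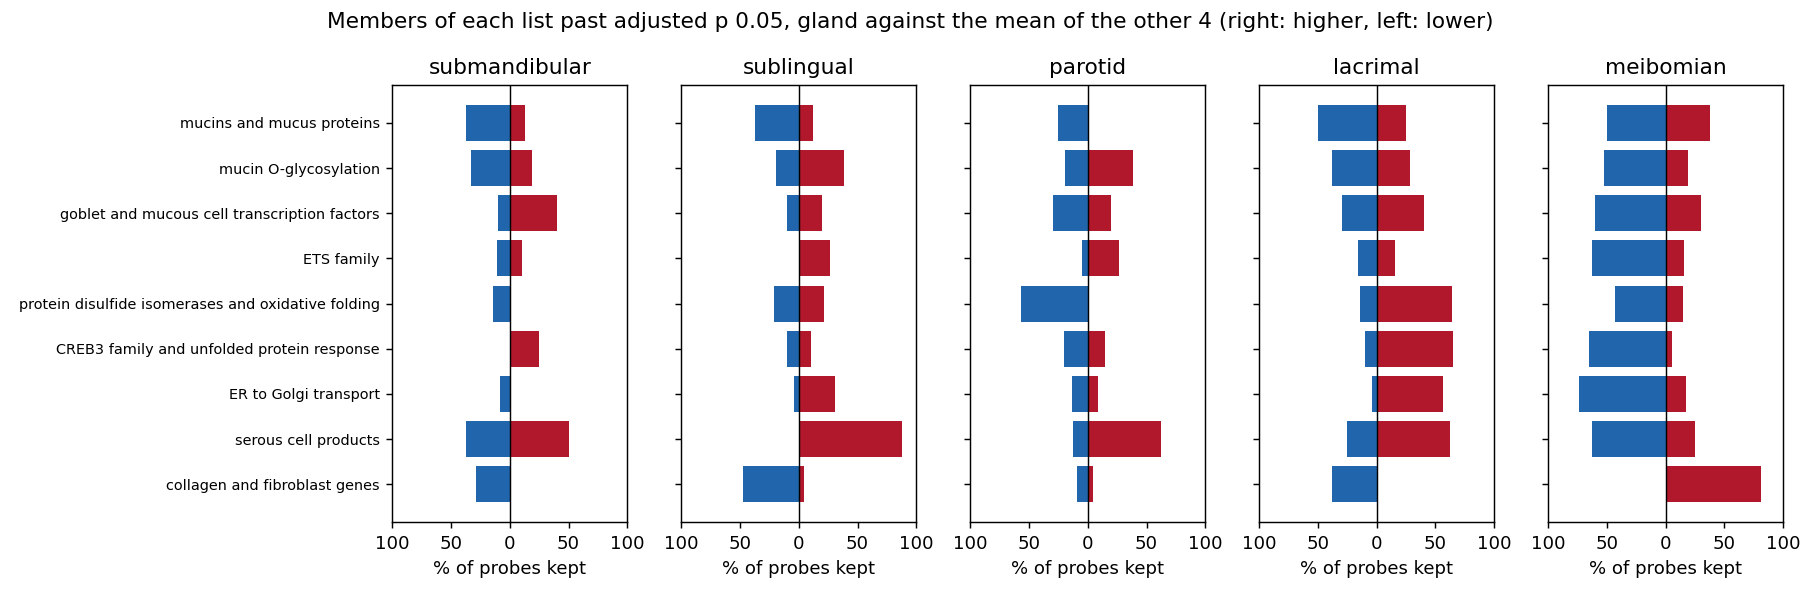
Share of the measured probes of 9 gene lists that were called higher (right) or lower (left) in each gland against the mean of the other 4, in % of probes kept. The lacrimal panel leans right and the meibomian panel left for disulfide isomerases, the unfolded protein response and ER to Golgi transport, and the collagen list leans right in the meibomian gland (17 of 21 probes).

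The genes whose log2 values were most like each of the 3 over the 26 arrays were taken from 6682 probes with 1 symbol and no missing value. For Spdef they were Gne, the enzyme that begins sialic acid synthesis (Pearson r = 0.951), Enpp5 (0.911), Stard3 (0.899), Padi2 (0.897), Pmm2, an enzyme of mannose supply for N-glycans (0.886), and Nrip3 (0.881). Gne had geometric means of 30.9 in the sublingual, 22.4 in the submandibular, 10.1 in the parotid, 9.90 in the lacrimal and 1.77 in the meibomian gland, the same order as Spdef. For Agr2 they were Edem3, which helps clear misfolded glycoproteins from the ER (0.903), Bmyc (0.893), Zfp36l1 (0.893), Sftpd, the collectin surfactant protein D (0.882), Pawr (0.872) and Tex19.2 (0.872). For Creb3l1 they were Ptpn18 (0.970), Max (0.966), Pax9, a paired-box transcription factor (0.961), Cyp2d22 (0.959), Hamp, which encodes hepcidin (0.957), and Slc22a2 (0.943). Pax9 had 10.4 in the parotid, 3.10 in the sublingual, 1.40 in the submandibular, 0.333 in the lacrimal and 0.0441 in the meibomian gland, the order of Creb3l1. These r values are a description over arrays that share 5 glands.

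**Figure D4:**
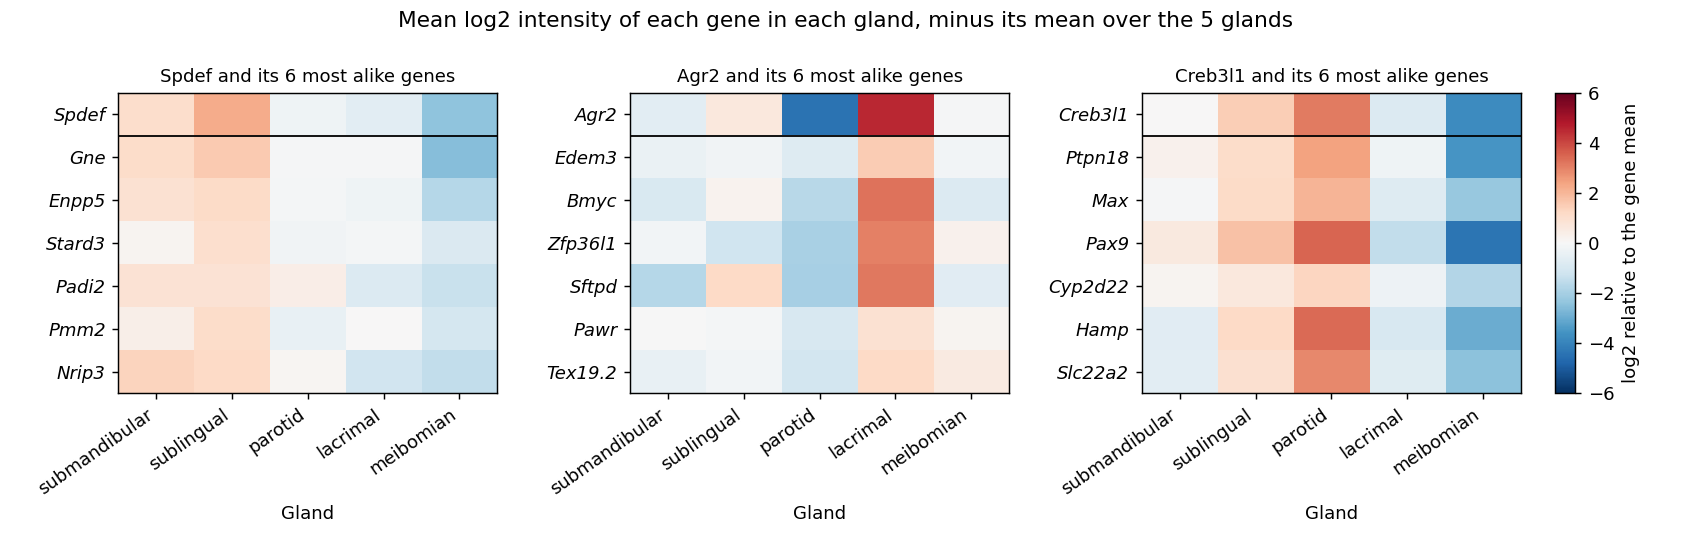
Mean log2 intensity of Spdef, Agr2, Creb3l1 and the 6 genes most like each, per gland, minus the mean of that gene over the 5 glands (colour). Spdef and its partners are highest in the sublingual or submandibular gland, Agr2 and its partners in the lacrimal gland, and Creb3l1 and its partners in the parotid gland.

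Males and females differed in the submandibular gland, where the mouse is known for granular ducts that are larger in males. Spdef was 2.74-fold lower in males there (4.71 in males and 12.9 in females, log2 -1.45 ± 0.33, adjusted p = 0.0163), and Agr2 was 2.49-fold lower (6.38 in males and 15.9 in females, -1.32 ± 0.30, adjusted p = 0.0163). In both genes the male and female pools did not overlap, with n = 3 pools per sex. The share of all probes without overlap here was not counted, so the lack of overlap adds nothing to the test. Of all probes, 0.670% were called lower and 1.92% higher in males in this gland, and 3.15% and 4.08% with the pool letter as a block. Creb3l1 also had no overlap (6.86 in males and 10.1 in females), and its difference did not pass (-0.55, 95% interval -1.45 to 0.35, adjusted p = 0.825).

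The sizes were alike in the 2 sets of arrays, with -1.46 and -1.45 for Spdef and -1.47 and -1.24 for Agr2 in sets 1 and 2. With 1 pool fewer in the submandibular gland, the difference of Spdef stayed between -1.48 and -1.44 and its adjusted p was 0.0527 to 0.0670, whichever of the 6 pools was left out. Agr2 lost its call without female A, female C or male B (-1.28, -1.14 and -1.03). With the pool letter as a block both were called.

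In the lists around these genes 10 probes were called by sex in the submandibular gland. Of 21 probes for O-glycosylation, 2 were higher and 3 lower in males. St3gal1 had 1.30 in males and 11.8 in females (-3.18 ± 0.48, adjusted p = 0.000378), and St3gal4 had 12.5 in males and 70.1 in females (-2.49 ± 0.39, adjusted p = 0.000595). Both were also higher in the sublingual gland. St6galnac4 and St6gal1, other sialyltransferases, were higher in the sublingual gland than the mean of the other 4, and highest in the parotid gland. They were not called by sex here (adjusted p = 0.916 and 0.929). St6galnac2, a sialyltransferase that caps the first sugar of O-glycans, went the other way, with 17.9 in males and 1.51 in females (3.57 ± 0.37, adjusted p = 7.55e-06). Muc13 had 15.1 in males and 3.44 in females (2.13 ± 0.45, adjusted p = 0.00841). Of 14 probes for disulfide formation 3 were higher and 0 lower (3 and 1 with the block), against the direction of Agr2: Pdia6 had 19.3 in males and 8.11 in females, Pdia4 had 9.30 in males and 4.75 in females, and Ero1a had 4.27 in males and 2.10 in females.

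Summed intensities of marker lists differed between the sexes in the same pools. Granular duct genes summed to 625 to 738 in male and 369 to 488 in female submandibular pools, and smooth muscle and myoepithelial genes (6 of 8 listed) to 118 to 231 in male and 39.9 to 66.8 in female pools. Skeletal muscle genes (12 of 15) summed to 23.0 to 28.3 in male and 3.52 to 5.12 in female pools, and B and plasma cell genes (8 of 9) to 18.4 to 31.3 in male and 38.6 to 48.9 in female pools. Keratinocyte genes (8 of 13) summed to 18.2 to 27.1 in male and 8.11 to 10.9 in female pools. The sums of other lists were lower in males, as Spdef and Agr2 were. Sebocyte genes (6 of 10) summed to 13.3 to 15.5 in male and 36.0 to 55.7 in female pools, and T cell genes (8 of 10) to 3.58 to 3.80 in male and 5.27 to 6.33 in female pools. Lacrimal acinus genes (4 of 7) summed to 122 to 135 in male and 165 to 190 in female pools. Such sums weigh the brightest probes most. Called higher in males were 2 of 3 granular duct and 4 of 6 smooth muscle and myoepithelial probes. So were 7 of 12 skeletal muscle and 1 of 8 keratinocyte probes. Called lower were 2 of 4 lacrimal acinus and 1 of 6 sebocyte probes. Of T cell and of B and plasma cell probes, 0 of 8 each were called. The median log2 difference was 0.17 over sebocyte and -0.04 over keratinocyte probes. The part of all these cells in the differences of Spdef and Agr2 was not tested.

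In the other glands the sexes were closer. Spdef read lower in 2 of the 3 male lacrimal pools than in any female pool, and the third male pool lay within the female range (-0.82 ± 0.33, 95% interval -1.52 to -0.13, adjusted p = 0.213, where 5.41% of all probes were called). With the pool letter as a block this difference was called (adjusted p = 0.0423, where 7.31% of all probes were lower in males), and it was also called without male lacrimal C (-1.22, adjusted p = 0.0284). Over 37 alternatives its adjusted p ran between 0.0284 and 1. B and plasma cell genes summed to 42.7 to 82.9 in male and 14.2 to 35.6 in female lacrimal pools, with 1 of 8 probes called higher in males. Endothelial genes (5 of 8) summed to 2.19 to 3.59 in male and 4.08 to 4.42 in female pools, with 0 of 5 probes called (2 lower with the block). Adipocyte genes (6 of 10) summed to 11.0 to 29.2 in male and 21.8 to 46.0 in female pools, with 2 of 6 probes called lower in males (5 with the block). The part of these cells was not tested.

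In the sublingual gland Spdef was slightly higher in each male pool than in each female pool (0.24, 95% interval -0.61 to 1.09, adjusted p = 1, 0.207% of probes called). Its difference was -0.00 (-0.85 to 0.85) in the parotid gland, where 0.0244% of probes were called, and -0.28 (-0.98 to 0.41) in the meibomian gland, with 0.0365% called. Agr2 differed by 0.42 (-0.35 to 1.18) in the sublingual, -0.19 (-0.96 to 0.58) in the parotid, 0.21 (-0.42 to 0.84) in the lacrimal and -0.01 (-0.63 to 0.62) in the meibomian gland. Creb3l1 differed by -0.20 (-1.30 to 0.90), 0.16 (-0.94 to 1.26), -0.24 (-1.14 to 0.66) and 0.14 (-0.76 to 1.03) in the same 4 glands. Intervals are 95% intervals, and the adjusted p of these values was 0.858 or above. A difference of the size seen in the submandibular gland lay outside the interval of Agr2 in each of these 4 glands.

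Variation of the sex difference between glands was tested by limma's moderated F test, which called 2.66% of all probes. Its adjusted p was 0.368 for Spdef, 0.174 for Agr2 and 1 for Creb3l1. With the pool letter as a block Agr2 was called (adjusted p = 0.00332, of 0.00332 to 0.537 over 36 alternatives). A contrast added after the values were seen set the sex difference of the submandibular gland against the mean of those of the other 4. It was -1.42 ± 0.35 for Agr2 (adjusted p = 0.0442, where 1.38% of probes were called), -1.24 ± 0.38 for Spdef (adjusted p = 0.164) and -0.52 ± 0.49 for Creb3l1 (adjusted p = 0.990). With the pool letter as a block Spdef was also called in this contrast (adjusted p = 0.0297, of 0.0297 to 0.413 over 36 alternatives).

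**Figure D5:**
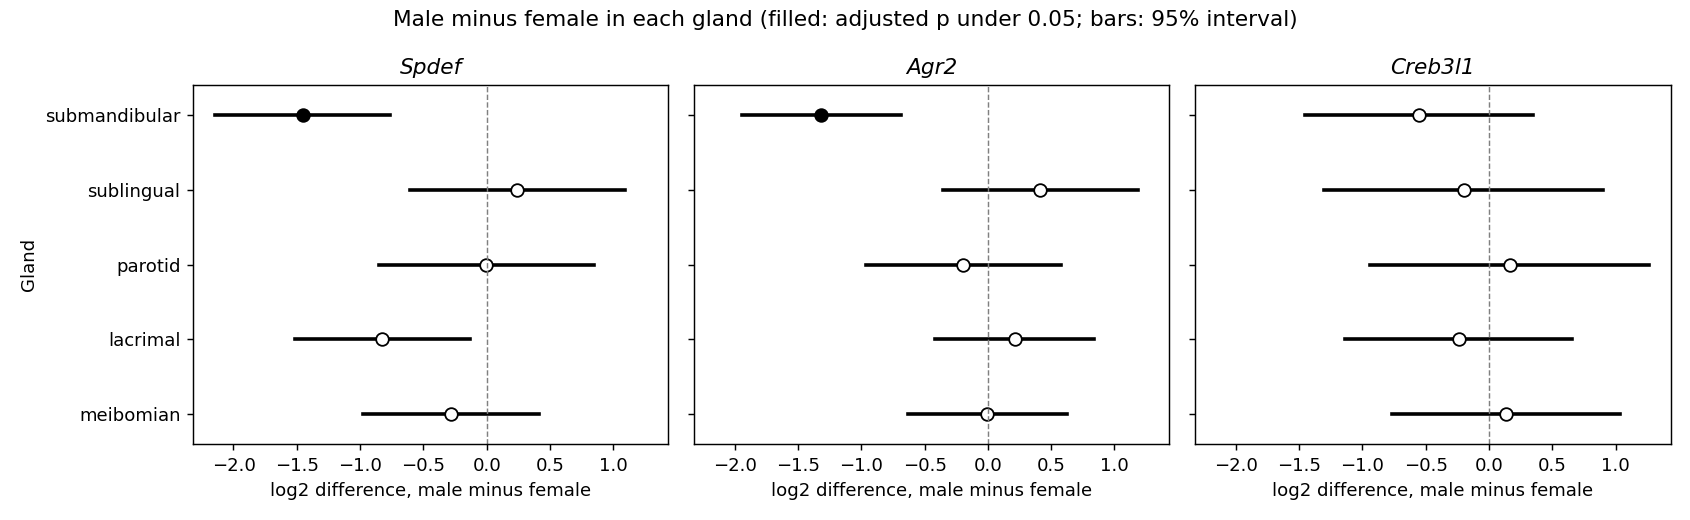
Log2 difference, male minus female, of Spdef, Agr2 and Creb3l1 in each of 5 glands, with 95% intervals and filled points where the adjusted p was under 0.05. The submandibular differences of Spdef (-1.45) and Agr2 (-1.32) are the filled points.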

How the data were processed

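The authors deposited 1 intensity per probe and array on a linear scale, scaled within arrays as the medians show. Neither the platform nor the earlier steps are given in the sources used here. Each column was matched to its sample by its label. Cells at exactly -1 (2241, or 0.821%, on 835 probes) were taken as missing. Lower values were raised to 0.0234, the 1st percentile of positive values, and log2 was taken. Probes at or above the 30th percentile on every array of at least 1 of 10 groups were kept (8211 of 10500).

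All 26 arrays were fitted with limma 3.58.1 (R 4.3.3) as 10 group means, with 16 residual degrees of freedom, and adjusted by Benjamini-Hochberg over all probes of a comparison at 0.05. Precision is limited by how few arrays there were: the median SD between pools was 0.241 (meibomian) to 0.504 (lacrimal) on the log2 scale. Pools were treated as separate sets of animals. The sample titles do not say whether pools shared animals. No 2 replicates were copies of each other, as their log2 values differed by an SD of 0.267 to 1.19.

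Pool letters are shared by the sexes. Deviations from the group means of same-letter male and female arrays correlated at 0.441 to 0.816 in the 9 pairs of glands with 3 pools, each the best of its gland, so the letter was used as a block in an alternative, printed where it changed a call.

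The 3 genes and the lists were chosen with earlier results of these data known. The text names the 3 genes, the 6 probes most like each, and up to 4 highest and 2 lowest called members of a list in the sublingual gland. Bhlha15, Hspa5, Xbp1, Qsox1, P4hb, the list members called by sex and the lacrimal and parotid values of listed genes were named after their values were seen. Where a gland lay below the 30th percentile on all its arrays, the fold is given with that gland raised to that percentile. Glands below it on some arrays only were left as measured, so such a fold is not a strict bound. Gene symbols came from the platform annotation (8983 probes with 1, 1 with several, 1516 with none), and 8975 matched RefSeq. Alternatives changed the floor, filter, missing code, scaling, blocks, array sets, weights and pools left out.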

Additional observations from a re-analysis of the deposited data

Results flagged for a closer look

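The sex difference of Agr2 in the submandibular gland stood apart from the mean of the sex differences in the other 4 glands by -1.42 on the log2 scale, male minus female (adjusted p = 0.0442). The submandibular difference was -1.32, against sublingual 0.42, parotid -0.19, lacrimal 0.21 and meibomian -0.01. The contrast was chosen after these values were seen, and it was called in 12 of 36 alternatives.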

How the results depend on the processing

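Of 1419 values of 39 results on gland, sex and interaction under the alternatives, 1372 kept their side of the threshold, 41 lost a call and 6 gained one. No called value turned direction, while 31 values that were not called changed sign, 13 of them of Creb3l1 in the submandibular gland. Of 1110 values of 30 differences between pairs of glands, 22 lost their call.

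The gland differences of Spdef in the sublingual and meibomian, Agr2 in the lacrimal and parotid, Creb3l1 in the parotid and meibomian glands kept their calls in 36 of 36 alternatives. With the replicate block, the letter of the pool, the sex difference of Spdef in the lacrimal gland (-0.82, adjusted p = 0.0423), the submandibular contrast of Spdef (-1.24) and the F test of Agr2 (adjusted p = 0.00332) gained a call, and the F test of Agr2 also gained one with the array set as a block (0.0109). The block changed no other call apart from the pairs given above. In array set 2 alone, calls were lost for Spdef in the lacrimal gland (-0.55) and for the submandibular sex difference of Spdef (-1.45) and Agr2 (-1.24) and the contrast of Agr2 (-1.41). With array weights they were lost for Spdef in the lacrimal gland (-0.68), its submandibular sex difference (-1.45) and the contrast of Agr2 (-1.35). The contrast of Agr2 was also lost with missing cells at the floor (-1.42) and with no filter (-1.42), and its sex difference in the submandibular gland with only the arrays of that gland fitted (-1.32). The cause was not tested.

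Leaving out 1 pool at a time, the submandibular sex difference ran between -1.48 and -1.44 for Spdef, with the call lost without each of the 6 submandibular pools, and between -1.53 and -1.03 for Agr2. The contrast ran between -1.63 and -1.14 for Agr2, with 20 of 26 values no longer called, and between -1.34 and -1.14 for Spdef. The sublingual difference of Agr2 ran between 0.60 and 1.03, and the lacrimal sex difference of Spdef between -1.22 and -0.40. Counts of probes called by sex moved with the replicate block (594 in place of 213 in the submandibular and 1110 in place of 444 in the lacrimal gland, 579 in place of 218 in the F test) and, for the lacrimal gland, with array weights (195) and its own arrays alone (135). The parotid count was 34 in array set 2 alone in place of 2, and the sublingual count was 36 with the block, 3 in array set 2 alone and 0 with its own arrays alone in place of 17. In the submandibular gland the count was 110 in array set 2 alone and 355 with array weights. With the block the gland counts fell to 1508 against 2447 (submandibular), 982 against 1775 (sublingual) and 1922 against 2943 (parotid).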
